A study of Mus musculus with 5 samples.

Results

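The E2F and retinoblastoma family was examined in a mouse neuroblastoma line, Neuro-2A (N2A), after siRNA knockdown of Upf1. Members were taken by gene symbol from the table of read counts, which gave 10 genes of the 55573 in the table. They were the activators E2f1, E2f2 and E2f3, the repressors E2f4, E2f5 and E2f6, the atypical repressors E2f7 and E2f8, and the pocket proteins Rb1 and Rbl1. E2f7 was also one of the study's RT-qPCR targets. That RT-qPCR compared cultured cortical neurons of wild-type and Fmr1-knockout mice, not these cells.

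E2F proteins are transcription factors that bind the promoters of genes needed for DNA replication and cell division. Pocket proteins hold E2Fs in an inactive or repressive state until cyclin-dependent kinases phosphorylate them late in G1, which releases the activators and lets S-phase genes be transcribed. E2f7 and E2f8 bind the same sites without a DP partner or a pocket protein, and repress E2F targets, E2f1 among them, later in the cycle. UPF1 is the RNA helicase on which nonsense-mediated mRNA decay (NMD) depends, a pathway that degrades transcripts whose translation ends in an unusual context and that also lowers the level of some normal mRNAs.

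Cells had been transfected with 60 pmol of siRNA and their polyadenylated RNA was sequenced. The control group (siCtl) received Silencer Negative Control #1 and had 2 libraries, replicates 1 and 3. The knockdown group (siUpf1) received a single siRNA against Upf1 and had 3 libraries, replicates 1, 2 and 3. All libraries came from 1 cell line, and the labels do not say whether replicates were separate cultures, so p-values measure the spread between these samples, which may be partly technical.

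Assigned reads per library were between 20402205 and 27717594. Upf1 mRNA had 5217 and 5243 normalised read counts in the siCtl libraries and 2403, 2496 and 2449 in the siUpf1 libraries (log2 fold change -1.10, DESeq2 adjusted p = 7.09e-101, SE 0.051). Normalised read counts are reads divided by the size factor of each library. Of 12 markers of sympathetic neuroblasts, the cells from which neuroblastoma arises, 11 had a mean normalised count of 100 or more in either group. Dbh reached it only in siUpf1, with a mean of 93.0 in siCtl and 286 in siUpf1. The summed level of the 12 neuroblast markers was 29974 to 30214 in siCtl and 36375 to 38698 in siUpf1. The 12 markers of other cell types summed to 956 to 973 in siCtl and 852 to 869 in siUpf1, with Mog at 0 in every library and 3 (Pecam1, Pdgfra and Mbp) above a mean of 100. The part of these marker shifts in the results on the family was not tested.

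All 10 members were well measured, with 450 to 3508 reads per library. Their coefficient of variation between libraries of a group was at most 5.9% in siCtl and 6.43% in siUpf1. The family differed between siUpf1 and siCtl in both directions. By DESeq2's Wald test (adjusted p under 0.05), 5 members were higher in siUpf1 (E2f1, E2f3, E2f7, E2f8 and Rb1), 2 were lower (E2f2 and E2f5) and 3 were not called (E2f4, E2f6 and Rbl1). Without siUpf1 replicate 1 or 3, 4 members were higher and 1 was lower. Calls over all genes also fell, from 6822 with every library to 5914 and 5570. Fewer members were also called when either siCtl library was left out, which leaves 1 control. Among all 15191 genes tested, 22% were called higher, 22.9% lower and 44.9% in either direction. The groups did not overlap at any of the 10 members, while they did not overlap at 69.4% of all genes tested. The median log2 fold change was 0.18 over the members and -0.0024 over all genes tested. No member reached an absolute log2 fold change of 1. In bulk RNA of this kind, fewer cells in a given state and less RNA per cell cannot be told apart.

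**Figure D1:**
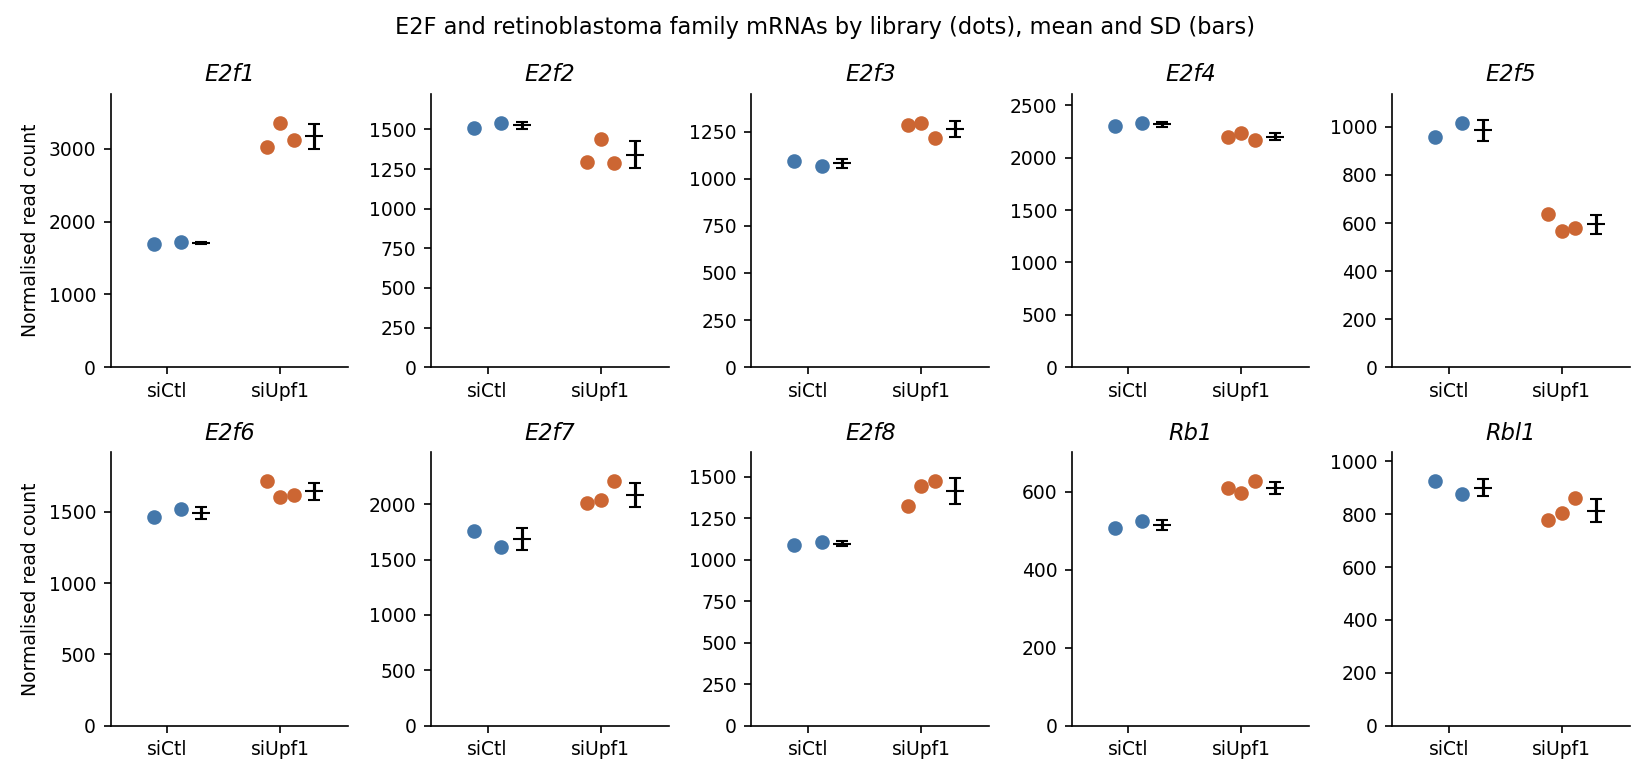
Normalised read count (vertical axis, from 0) of the 10 family members in each library, with 2 siCtl libraries in blue and 3 siUpf1 libraries in orange, and the mean and SD of each group in black. The separation is widest at E2f1, where siUpf1 libraries lie between 3029 and 3359 and siCtl libraries at 1696 and 1718, and at E2f5, where siUpf1 libraries lie between 565 and 638 and siCtl libraries at 956 and 1017.

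The activators did not move together. E2f1, the activator best known for also driving apoptosis genes, lies on the minus strand of chromosome 2 (154559407 to 154569892, build GRCm38). Its normalised counts were 1696 and 1718 in the siCtl libraries and 3029, 3359 and 3127 in the siUpf1 libraries. Each siUpf1 library was thus far above both siCtl libraries, and the distance between the groups was many times the spread within them. E2f1 rose 1.86-fold, from 1707 ± 15.5 (SD, n = 2) to 3172 ± 169 (SD, n = 3), a difference of 0.89 on the log2 scale (DESeq2 adjusted p = 2.77e-44, SE 0.063). This was the largest change among the members, and 94.7% of all genes tested had a lower log2 fold change.

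E2f2 (chromosome 4, 136172394 to 136196057, plus strand), an activator with a role in proliferation control, had 1512 and 1542 normalised counts in siCtl and 1294, 1437 and 1291 in siUpf1. Its siUpf1 libraries were all below siCtl, with replicate 2 nearest to the controls. The siUpf1 level was 87.6% of the siCtl level (log2 fold change -0.19, DESeq2 adjusted p = 0.0251, SE 0.074). The call did not stand without siCtl replicate 1 (adjusted p = 0.12), siCtl replicate 3 (0.201), siUpf1 replicate 1 (0.116) or siUpf1 replicate 3 (0.147), or with size factors from total counts (0.0517).

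E2f3 (chromosome 13, 29906575 to 29986063, minus strand), which yields a long and a short protein from different promoters that these counts do not separate, had 1096 and 1065 normalised counts in siCtl and 1282, 1296 and 1217 in siUpf1. The 3 siUpf1 libraries were close to each other and above both controls. E2f3 rose 1.17-fold (log2 fold change 0.23, DESeq2 adjusted p = 0.00794, SE 0.076). It was no longer called without siCtl replicate 1 (adjusted p = 0.0659) or siCtl replicate 3 (0.143).

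Among the pocket-protein-dependent repressors, E2f5 fell and E2f4 did not pass the test. E2f5 (chromosome 3, 14578641 to 14606309, plus strand) works with Rbl1 and Rbl2 in resting and early G1 cells. Its normalised counts were 956 and 1017 in siCtl and 638, 565 and 581 in siUpf1. The highest siUpf1 library was well below the lower control. E2f5 fell from 987 ± 43.2 (SD, n = 2) to 595 ± 38.2 (SD, n = 3), to 60.4% of the level in controls (log2 fold change -0.73, DESeq2 adjusted p = 1.32e-13, SE 0.094).

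E2f4 (chromosome 8, 105297663 to 105305370, plus strand), the main E2F of quiescent cells, had 2302 and 2332 normalised counts in siCtl and 2199, 2232 and 2165 in siUpf1. The groups were separate, but by a gap of only a few percent. Its log2 fold change was -0.08 (95% interval -0.19 to 0.04, DESeq2 adjusted p = 0.303). E2f6 (chromosome 12, 16810963 to 16839742, plus strand) represses without a pocket protein, as part of a Polycomb complex. It had 1461 and 1522 normalised counts in siCtl and 1715, 1603 and 1615 in siUpf1. All siUpf1 libraries were higher, and the log2 fold change was 0.14 (95% interval 0.01 to 0.28, DESeq2 adjusted p = 0.0831). edgeR's quasi-likelihood test called E2f6 higher (adjusted p = 0.0248), but it called 8392 genes in all against 6822 by DESeq2.

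Both atypical repressors rose. E2f7 (chromosome 10, 110745439 to 110787384, plus strand) had 1754 and 1613 normalised counts in siCtl and 2010.0, 2036 and 2206 in siUpf1. The controls differed from each other more at E2f7 than at any other member in relative terms, yet both lay below all siUpf1 libraries. E2f7 rose 1.24-fold, from 1683 ± 99.3 (SD, n = 2) to 2084 ± 107 (SD, n = 3), a difference of 0.31 on the log2 scale (DESeq2 adjusted p = 3.53e-05, SE 0.069). The study picked E2f7 for RT-qPCR among its NMD targets. These had to be higher after Upf1 knockdown in N2A RNA-seq and enriched with phosphorylated UPF1. The call of E2f7 here is thus not independent evidence. E2f8 (chromosome 7, 48866429 to 48881596, minus strand), which forms dimers with E2f7, had 1087 and 1108 normalised counts in siCtl and 1324, 1447 and 1473 in siUpf1. The groups were clearly apart, and E2f8 rose 1.29-fold (log2 fold change 0.37, DESeq2 adjusted p = 1.04e-05, SE 0.077).

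Of the pocket proteins, Rb1 was called higher and Rbl1 did not pass the test. Rb1 (chromosome 14, 73183673 to 73325822, minus strand), the retinoblastoma tumour suppressor, had 506.3 and 525 normalised counts in siCtl and 608, 596 and 627 in siUpf1. It was 1.18-fold higher in siUpf1 (log2 fold change 0.24, DESeq2 adjusted p = 0.0388, SE 0.102). This call rested on every library, since leaving out any of the 5 gave an adjusted p between 0.0734 (siUpf1 replicate 2) and 0.258 (siCtl replicate 1). TMM size factors (0.0509) and no independent filtering (0.0716) also ended it. Rbl1 (chromosome 2, 157145893 to 157204534, minus strand), which partners mainly with E2f4 and E2f5, had 925 and 877 normalised counts in siCtl and 777, 803 and 860.2 in siUpf1. The highest siUpf1 library came close to the lower control. The log2 fold change of Rbl1 was -0.15 (95% interval -0.32 to 0.03, DESeq2 adjusted p = 0.178).

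**Figure D2:**
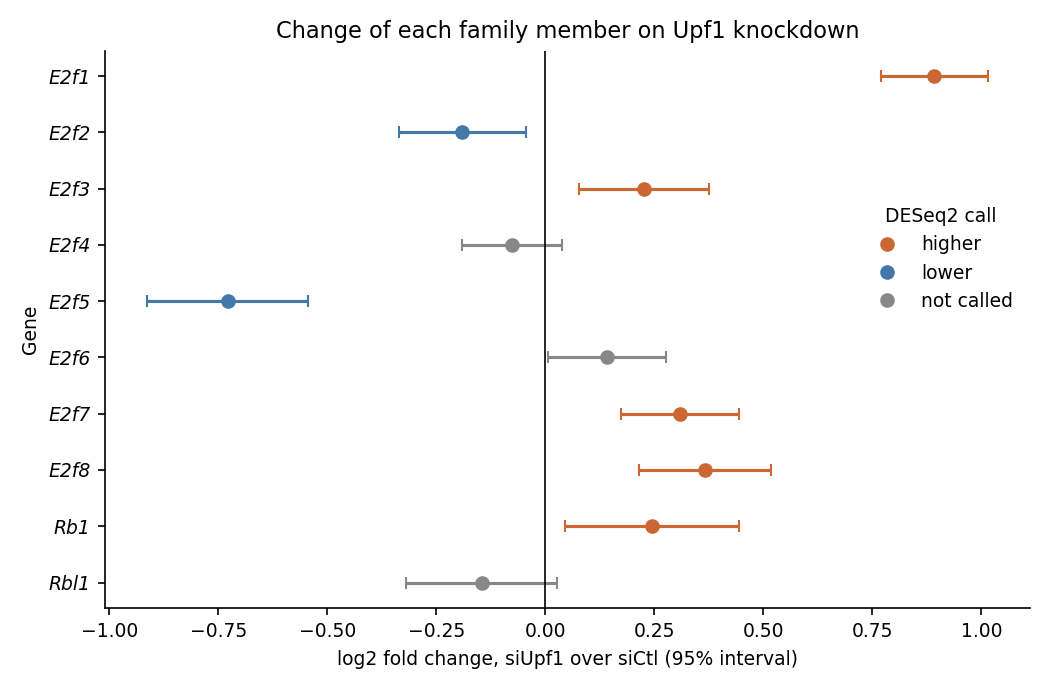
Log2 fold change of siUpf1 over siCtl (horizontal axis) for each of the 10 members, with its 95% interval as a bar and its DESeq2 call as a colour. E2f1 (0.89) and E2f5 (-0.73) stand furthest from 0 on either side, and the other 8 members lie between -0.19 and 0.37.

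E2f1, E2f5, E2f7 and E2f8 kept their call and direction under all 12 alternatives. None of the 10 members changed sign under any of them. The alternative of shrunken fold changes reused the p-values of the main test, so it could not change a call.

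Members of the same class were next compared with each other, as the log2 ratio of their normalised counts within a library. The length of each gene cancels when such a ratio is compared between groups. A total of 8 pairs was examined. The activator pairs share genes with each other, as do the pairs of E2f4 to E2f6, so the 8 pairs are not separate comparisons. At 7 of them the ratios of the siUpf1 libraries did not overlap those of the siCtl libraries, as was the case at 65.6% of all pairs of tested genes with a read in every library. An exact permutation test over the 5 libraries (two-sided) gave p = 0.1 for each of these 7, the smallest value that 2 against 3 libraries allow, or 0.114 after Benjamini-Hochberg adjustment over the 8 pairs.

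The ratio of E2f1 to E2f2 moved most, by 1.08 on the log2 scale, from 0.16 ± 0.0069 (SD, n = 2) to 1.24 ± 0.029 (SD, n = 3). That of E2f1 to E2f3 rose by 0.67 and that of E2f2 to E2f3 changed by -0.42. Among the repressors, the ratio of E2f4 to E2f5 moved by 0.66, that of E2f5 to E2f6 by -0.87 and that of E2f4 to E2f6 by -0.22. The ratio of Rb1 to Rbl1 moved by 0.39. The exception was E2f7 to E2f8, whose ratio was 0.62 ± 0.1 in siCtl and 0.56 ± 0.059 in siUpf1 and overlapped between the groups (difference -0.06, exact permutation p = 0.6). With 2 and 3 libraries this does not show that the atypical pair changed equally.

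Levels were compared between genes only after division by length, as normalised counts per kilobase of all annotated exons. In siCtl cells E2f4 was the most abundant member, with 945 ± 8.72 per kilobase (SD, n = 2). E2f5 (554 ± 24.2) and E2f1 (541 ± 4.92) followed, and their libraries overlapped. Next in order came E2f2 (313), E2f6 (263), E2f8 (202) and E2f3 (199), of which the last pair overlapped, then E2f7 (187 ± 11), Rbl1 (150.3) and Rb1 (85.7 ± 2.15).

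In siUpf1 cells the order at the top changed. E2f1, at 1006 ± 53.6 per kilobase (SD, n = 3), lay above E2f4 (897 ± 13.5), with no overlap between their libraries. E2f5 (334) was next, followed by E2f6 (290.3), E2f2 (275) and E2f8 (259.9). The libraries of E2f6 and E2f2 overlapped, as did those of E2f2 and E2f8 and those of E2f3 (233) and E2f7 (231). The pocket proteins stayed lowest, with Rbl1 at 136 and Rb1 at 101 per kilobase.

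This order depends on the length used. With the median length of the annotated coding transcripts, the siCtl levels of E2f6 and E2f7 were 617 and 523 per kilobase, which placed both above E2f2, and E2f6 above E2f5. E2f4 remained the most abundant member in siCtl under both lengths, and the mean of E2f1 lay above that of E2f4 in siUpf1 under both. With the transcript length, however, the siUpf1 libraries of E2f1 (1104 to 1224 per kilobase) and E2f4 (1086 to 1119.7) overlapped.

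Expressed as a share of the summed level of E2f1 to E2f8 per kilobase, E2f1 went from 16.9% ± 0.043 (SD, n = 2) to 28.5% ± 1.02 (SD, n = 3). E2f5 went from 17.3% ± 0.55 to 9.47% ± 0.74. E2f4, which was not itself called, went from 29.5% ± 0.072 to 25.4% ± 0.25. The 3 activators together held 32.9% ± 0.22 in siCtl and 42.9% ± 1.3 in siUpf1, and the repressors E2f4 to E2f6 held 55.0% ± 0.62 and 43.2% ± 1.4. The atypical pair held 12.1% ± 0.4 and 13.9% ± 0.73. With the median coding transcript length the activators held 27.1% and 35.1%, so the gain of their share did not turn with the length. Within the class, per kilobase of exon, the gain was that of E2f1, since E2f2 went from 9.76% ± 0.022 to 7.79% ± 0.34 and E2f3 from 6.22% ± 0.2 to 6.61% ± 0.18. The summed level itself was 3203 ± 37.3 per kilobase in siCtl and 3525 ± 64.8 in siUpf1. A share can therefore fall where the level of the gene does not.

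**Figure D3:**
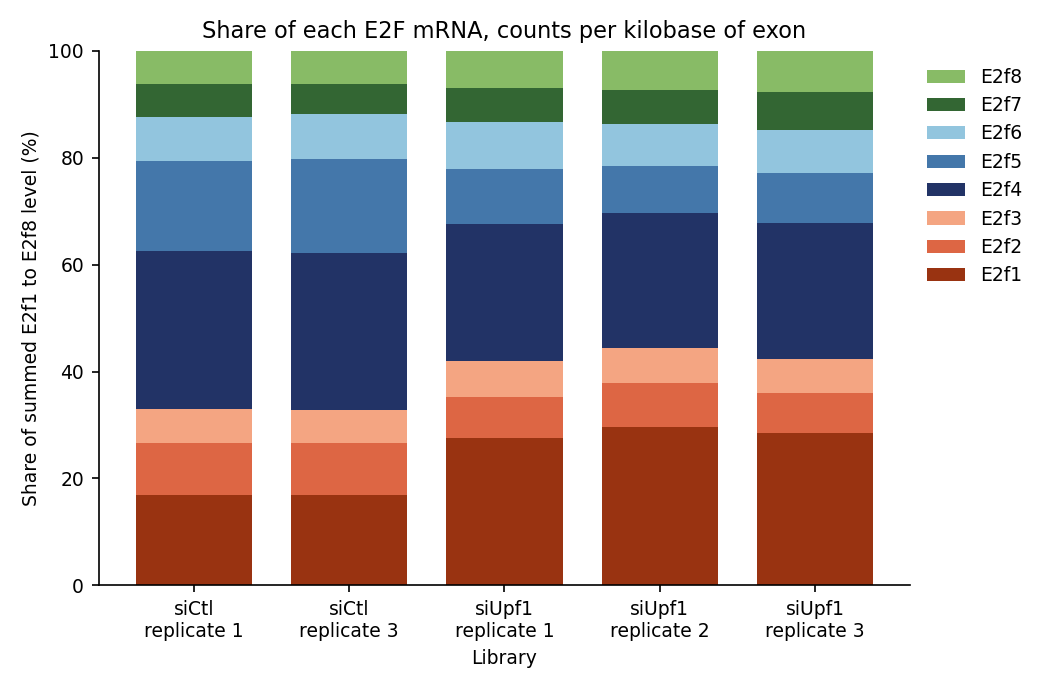
Share of each E2F mRNA (vertical axis, percent) in the summed level of E2f1 to E2f8 per kilobase of exon, for each of the 5 libraries (horizontal axis), with activators in reds, repressors in blues and atypical members in greens. The E2f1 segment is 16.9% in both siCtl libraries and 27.6% to 29.6% in the siUpf1 libraries, and the E2f5 segment shrinks from 16.9% and 17.7% to between 8.8% and 10.3%.

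Transcript features that are known to bear on NMD were read from GENCODE M21, which describes the genome build of the files. A transcript annotated as subject to NMD was listed for 3 of the 10 members, E2f6 (3 of its 7 transcripts), E2f7 (1 of 9) and Rb1 (1 of 6), against 28.4% of the 12730 protein-coding genes tested. An ATG upstream of the coding sequence, in the 5′ UTR of the representative transcript, was found in E2f1 (1), E2f7 (1) and E2f8 (4) and in no other member, against 51.6% of protein-coding genes. The 3′ UTR was shortest in E2f5 (592 bases), E2f8 (618) and E2f4 (682), of which E2f5 fell and E2f8 rose. It was 1281 bases in E2f1, 1368 in E2f6, 1613 in Rbl1 and 1709 in Rb1. It was longest in E2f7 (2546), E2f2 (3020) and E2f3 (3328), of which E2f2 was called lower and the others higher. The median over protein-coding genes tested was 984. Counts per gene do not tell isoforms apart, so the level of an NMD transcript of E2f6, E2f7 or Rb1 was not measured. No exon of a member overlapped another gene on the same strand. Genes on the opposite strand overlap E2f5, E2f7, E2f8 and Rb1, and reads had been counted by strand.

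The E2f7 amplicon of the study is shown because it decides which E2f7 transcripts RT-qPCR sees beside a count over the whole gene. The study used it in cortical neurons of wild-type and Fmr1-knockout mice, with mRNA set against pre-mRNA. It is therefore not a measure of the Upf1 knockdown described here. The mRNA primers lie in exons 3 and 4 of the 13-exon transcript E2f7-201, at chr10:110754334-110754353 and chr10:110759920-110759940 of GRCm38. The pre-mRNA primers lie at chr10:110754269-110754288, in exon 3, and at chr10:110754376-110754397, past the end of that exon at 110754359. The primers are given 5′ to 3′.
E2f7 mRNA sense: aggatgcgttcgtgaactcc
E2f7 mRNA antisense: tgacaaggggtagctcggata
E2f7 pre-mRNA sense: cgccagcccagacataagag
E2f7 pre-mRNA antisense: ggggaagttttacaaagccctc
Both mRNA primers also match E2f7-206, the transcript annotated as subject to NMD. The antisense pre-mRNA primer matches no exon of E2f7-201, but lies within the last exon of the short coding transcripts E2f7-205 and E2f7-209, which run on to 110754577 and 110756637.

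The siRNA against Upf1 is shown because siRNAs are known to lower some other mRNAs through seed matches in their 3′ UTRs. In its sense strand, 5′ to 3′, capitals mark bases 12 to 18, the complement of the seed of the guide strand.
Upf1 siRNA sense strand: ucaagguuccuGAUAAUUa
The matching DNA letters GATAATT were found in the representative 3′ UTR of 1 member, E2f2, and of 7.63% of protein-coding genes tested. The site of the sense strand, AACCTTG, was found in Rbl1 only among the members, and in 9.76% of protein-coding genes. Capitals mark the sites in the windows below, on the strand of the gene, at chr4:136196011-136196040 for E2f2 and chr2:157147397-157147426 for Rbl1.
E2f2 site: cattctgttgtGATAATTgggcattaaata
Rbl1 site: gggttatacaaAACCTTGcaccacaagtac
E2f2 was called lower and Rbl1 was not called, with log2 fold changes of -0.19 and -0.15. The part of these sites in either value was not tested.

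Several E2F genes are themselves E2F targets, so promoters were searched for the E2F motif. RefSeq windows from 250 bases before to 50 after the transcript start (GRCm38.p6) were given for 7 members, E2f1, E2f2, E2f3, E2f6, E2f7, E2f8 and Rbl1, in 9 windows. The letters searched on both strands were TTTCCCGC, TTTCGCGC, TTTGCCGC and TTTGGCGC, which 2.26% of all 32851 windows hold. They occurred in 4 of the 7 members, Rbl1, E2f2, E2f7 and E2f3. Capitals mark the motif in the windows, on the strand of the gene, and its position is counted from the start base as 0.
Rbl1 (bases -18 to -11, chr2:157204534-157204563): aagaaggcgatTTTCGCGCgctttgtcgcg
E2f2 (bases 39 to 46, chr4:136172294-136172323): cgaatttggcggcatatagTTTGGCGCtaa
E2f7 (bases -198 to -191, chr10:110745230-110745259): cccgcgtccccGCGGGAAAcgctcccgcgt
E2f3 (bases -11 to -4, chr13:29986056-29986085): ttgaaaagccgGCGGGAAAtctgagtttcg
In E2f7 and E2f3 the motif is on the opposite strand. The 4 genes with the motif did not share a direction, with log2 fold changes of -0.15 (Rbl1), -0.19 (E2f2), 0.31 (E2f7) and 0.23 (E2f3). The window of E2f1 held no match to these letters, and its RefSeq start lies 466 bases downstream of the GENCODE start. The cell cycle homology element (CHR), TTTGAA, which 17.9% of windows hold, occurred in E2f2, E2f3 and E2f8. E2f2 held it only in a window whose RefSeq start lies 8388 bases downstream of the GENCODE start. That window is not the one with the E2F motif. Among all tested genes with a window, 499 held the E2F motif, of which 22.04% were called higher and 29.9% lower, and 10212 did not, of which 24.0% were called higher and 25.5% lower. Their median log2 fold changes were -0.028 and -0.016.

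The rest of the pathway was described in 7 lists of partners, regulators and targets, which held 74 genes. Of the 70 tested, 16 were called higher and 23 lower, and 31 were not called, where 22% of all genes tested were called higher and 22.9% lower. The count of higher genes was thus near the share over all genes, and that of lower genes was above it. Whether the lists differ from all genes was not tested. These shares are also the background for the count of each list below. The lists had a median log2 fold change of -0.07 against -0.0024 over all genes. Fewer list genes were called in each direction without siCtl replicate 3, as was so over all genes. The 4 that were not tested, Cdk6, Cdkn2b, Trp73 and Pmaip1, had a mean under 1 normalised count in each group.

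E2f1 to E2f6 bind DNA as dimers with a DP protein. Tfdp2 rose from 490 ± 6.38 (SD, n = 2) to 817 ± 52.3 (SD, n = 3) normalised counts (log2 fold change 0.74, DESeq2 adjusted p = 1.76e-12, SE 0.1). Tfdp1 rose by a log2 fold change of 0.12 (DESeq2 adjusted p = 0.0263), a call that did not stand without siCtl replicate 1 (0.0626), siCtl replicate 3 (0.35) or siUpf1 replicate 2 (0.125). Rbl2, the pocket protein that pairs with E2f4 in quiescent cells, was not called (log2 fold change -0.21, DESeq2 adjusted p = 0.116). edgeR called it lower (adjusted p = 0.0449), as it did 4172 of all genes against 3481 in the main test.

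Of 10 G1 cyclins and their kinases tested, 2 were higher and 5 lower, with a median log2 fold change of -0.22. The shares over all genes tested were 22% higher and 22.9% lower. Ccnd1, the D-type cyclin that starts the phosphorylation of Rb1, rose (0.25), and Ccnd3 of the same class fell (-0.56). Ccne1 (-0.53), the cyclin that completes this phosphorylation, fell as did Cdc25a (-0.35), the phosphatase that activates its kinase. Ccna2, the S-phase cyclin, was higher by 0.12, but not without siCtl replicate 1 (DESeq2 adjusted p = 0.171), siCtl replicate 3 (0.203), siUpf1 replicate 1 (0.0879) or siUpf1 replicate 3 (0.0648).

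Of 6 CDK inhibitors tested, 3 were higher and 1 lower, against 22% and 22.9% of all genes tested. Cdkn2d, an inhibitor of the cyclin D kinases, rose from 519 ± 23.2 (SD, n = 2) to 985 ± 37.7 (SD, n = 3) normalised counts (log2 fold change 0.92, DESeq2 adjusted p = 5.72e-22, SE 0.093). Cdkn2c (0.52), of the same family, and Cdkn1b (0.24), which binds cyclin E and A kinases, rose as well. Cdkn1a, the p53 target that arrests cells in G1, fell from 2152 ± 70.2 to 1394 ± 102 (log2 fold change -0.63, DESeq2 adjusted p = 1.65e-16, SE 0.073).

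The MuvB core joins E2f4 or E2f5 and a pocket protein in the repressive DREAM complex, and later joins MYB and FOXM1 proteins to activate mitotic genes. Of its 8 genes and partners, 3 rose, Lin9 (0.62), Mybl2 (0.31) and Foxm1 (0.26), and 2 fell, Lin37 (-0.37) and Rbbp4 (-0.28). Lin37 was not called without siCtl replicate 3 (DESeq2 adjusted p = 0.138), which left 1 gene of the list lower. Of 12 Polycomb partners of E2f6 and co-repressors of Rb1, 3 rose and 4 fell. Rnf2, the ubiquitin ligase of the Polycomb complex, rose by 0.78, Yaf2 by 0.25 and L3mbtl2 by 0.20, the last of which was not called without siCtl replicate 1 (0.077). Suv39h1, a histone methyltransferase that RB1 recruits, fell (-0.58), as did Pcgf6 (-0.26) and Hdac1 (-0.23). Without siCtl replicate 1 or siUpf1 replicate 3, Pcgf6 was not called (0.109 and 0.0624) and 2 genes of the list were lower. edgeR, which called 4220 of all genes higher against 3341 in the main test, called 6 of the list higher.

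The S-phase targets of E2F did not rise as a group. Of 26 tested, 2 were called higher, 10 lower and 14 were not called, with a median log2 fold change of -0.09. Over all genes tested, 22% were called higher and 22.9% lower, with a median of -0.0024. Cdc6 (0.53), which licenses replication origins, rose. Ezh2, the histone methyltransferase of PRC2, a Polycomb complex, fell from 4398 ± 104 (SD, n = 2) to 1904 ± 83.7 (SD, n = 3) normalised counts (log2 fold change -1.21, DESeq2 adjusted p = 1.29e-94, SE 0.058). Pcna (-0.40), the sliding clamp of DNA polymerase, and Chek1 (-0.39), a replication checkpoint kinase, also fell, the latter not without siCtl replicate 3 (DESeq2 adjusted p = 0.0962). The number of lower genes fell without siCtl replicate 3, where that over all genes fell as well, by a smaller part. edgeR, which also called more of all genes higher (4220 against 3341), called 4 genes of the list higher.

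Of 5 apoptosis targets tested, 1 was higher and 1 lower. Apaf1, the scaffold of the apoptosome, fell from 982 ± 43.6 (SD, n = 2) to 587 ± 43.6 (SD, n = 3) normalised counts (log2 fold change -0.74, DESeq2 adjusted p = 1.76e-13).

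**Figure D4:**
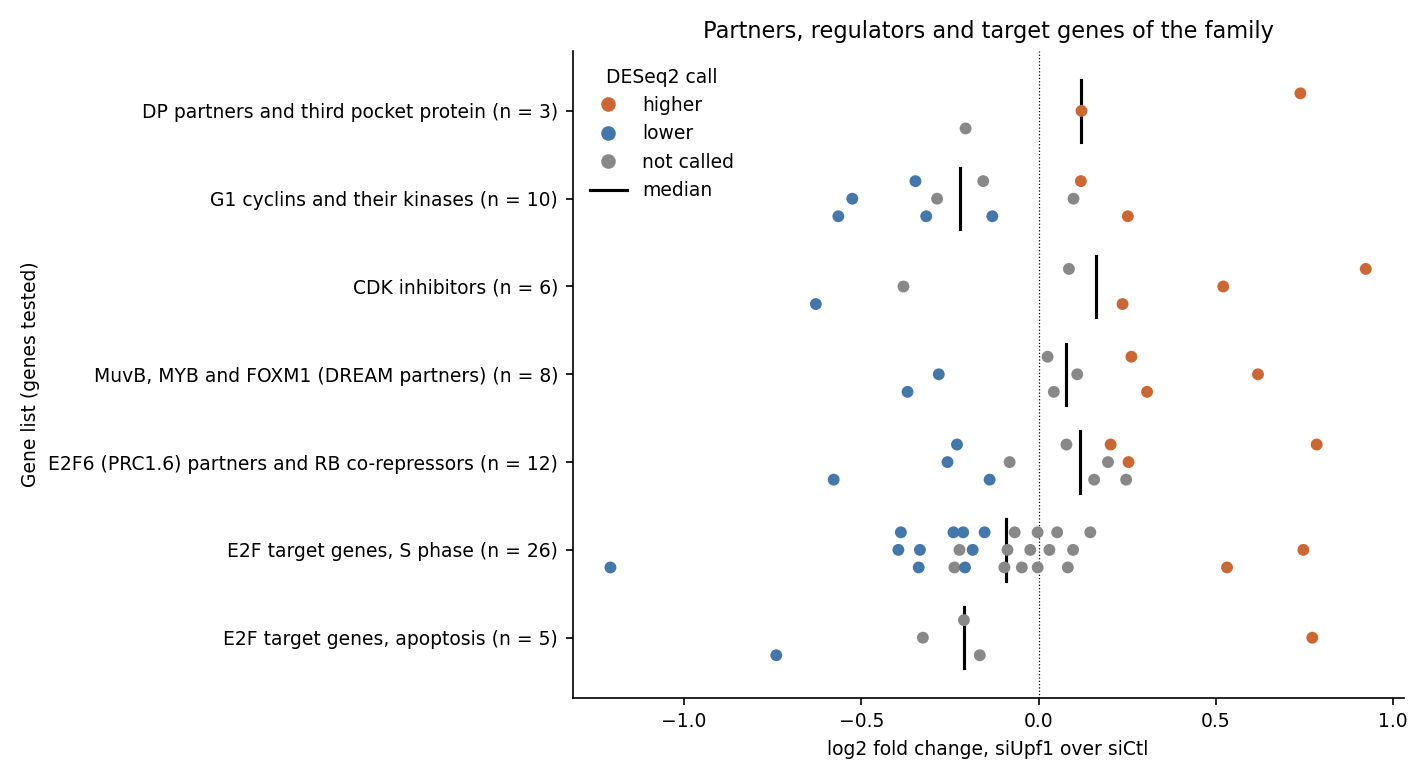
Log2 fold change of siUpf1 over siCtl (horizontal axis) of each tested gene in the 7 lists (vertical axis, number of genes tested in brackets), coloured by its DESeq2 call, with the median of each list as a black line. Every list with more than 1 call except that of DP partners holds calls in both directions, and the S-phase targets hold 10 lower and 2 higher genes around a median of -0.09.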

How the data were processed

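Polyadenylated RNA of N2A cells was sequenced in 5 strand-specific libraries. Raw counts of reads were deposited for each gene. The authors mapped reads to GRCm38.p6 with STAR (2.7.0f in the submitters' processing notes) and counted those on exons with featureCounts (Subread 1.6.4), set to the reverse strand, without normalisation or pooling of replicates. Reads of near-identical copies are uncertain. PCR duplicates cannot be recognised in counts, so the true error can exceed counting error. Of 55573 genes, 28121 had a read.

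The main test was DESeq2's Wald test (1.42.0, R 4.3.3) on all genes and all 5 libraries, fitted to group alone, with size factors by the median of ratios, filtering of low means by the tool, and p-values adjusted by Benjamini-Hochberg. A call was an adjusted p under 0.05. Alternatives were edgeR's quasi-likelihood test (4.0.16), TMM or total-count size factors, a filter of 10 counts in 2 or more libraries, no independent filtering, a replicate block, shrunken fold changes, and leaving out each library, 12 in all. Levels were divided by the union of annotated exons or the median coding transcript length. Permutation tests were exact (scipy 1.17.1).

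GENCODE M21 supplied gene models, and 99.8% of the gene identifiers were found there. Promoter windows came from RefSeq. Scripts were tested on simulated data. Chi-square per degree of freedom was 5.22 to 21.1 within groups and at least 42.8 between them, so every library was kept as a replicate. Named genes were Upf1, the 10 members, the genes of the DP list, and in each list the called genes with the 3 largest and 3 smallest log2 fold changes. Some genes that this rule picks are not reported here. The members, lists and tests were chosen with earlier results of these data known.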

Additional observations from a re-analysis of the deposited data

How the results depend on the processing

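No gene picked by the naming rule changed sign under any alternative. For the 10 members, 102 of 120 values kept their side of the threshold, 17 lost the call and 1 gained it. For the 31 other genes it picks, 347 of 372 kept it, 24 lost it and 1 gained it. Values under shrunken fold changes kept their side by design, since that alternative reused the p-values of the main test. Of 154 recomputed counts of the lists, 22 moved by over 1.5 times. The count of members called higher was 3 to 4 and of those called lower 1 to 2 when each library was left out, and total-count size factors left 1 lower. Across the lists, 13 to 16 genes were higher and 14 to 22 lower without each library. Leaving out a siCtl library leaves 1, which is then assumed to vary like the siUpf1 libraries. No scaling moved the median of all genes past 0.02. With the median coding transcript length the siCtl levels per kilobase were 622 (E2f1), 322 (E2f2), 235 (E2f3), 1163 (E2f4), 617 (E2f6), 523 (E2f7), 305 (E2f8), 111 (Rb1) and 185 (Rbl1).

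With the replicate number as a block, 3 members were higher and 1 lower, 9 genes of the lists higher and 13 lower, and 3919 of all genes called against 6822. The block ended the calls of E2f2 (adjusted p = 0.131), E2f3 (0.234) and Rb1 (0.267), and those of Tfdp1, Ccna2, Cdkn2c, Cdkn1b, Mybl2, Foxm1, Lin37, Hdac1, L3mbtl2, Yaf2, Pcgf6 and Chek1. The labels do not say whether equal numbers pair the libraries, and siCtl has no replicate 2. Across genes, deviations from group means correlated at -0.034 (number 1) and -0.062 (number 3). With 2 siCtl libraries their deviations mirror each other, so these values are not separate checks. They do not settle whether libraries were paired. The cause of the changes under the block was not tested. At this depth a change of the 4 list genes with a mean under 1 normalised count was not detectable.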
